A study of Saccharomyces cerevisiae with 15 samples.

Results

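The genes described here encode the subunits of Mediator and of the general transcription factors of budding yeast (Saccharomyces cerevisiae). The general factors TFIIA, TFIIB, TFIID, TFIIE, TFIIF and TFIIH assemble with RNA polymerase II at promoters, where the TATA-binding protein (TBP) of TFIID binds DNA, TFIIB and TFIIF place the polymerase, and TFIIE and TFIIH open the template. Mediator is a large coactivator that carries signals from DNA-bound activators and repressors to this assembly. Its head and middle modules contact the polymerase, its tail module is the main target of activators, RGR1 holds the modules together, and a separable kinase module can block contact with the polymerase. Members were chosen by gene name as known subunits, and 38 of the 39 genes listed were measured among the 5449 genes tested. No probe set carried the symbol of SRB4, a head subunit, which was not analysed here. The measured members are 24 of 25 Mediator genes and all 14 genes listed for the general factors, and none of them has more than 1 probe set or shared probes.

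Expression was measured on 15 Affymetrix Yeast Genome 2.0 arrays, with 3 biological replicates of each of 5 strains. Cells were harvested in mid-log phase from rich medium, and the labels give no growth temperature. The mutants rpb1-1 and rpb1S751F are of mating type alpha (MATα), as is their wild type WT1B, and they carry alleles of RPO21, the gene for the largest polymerase subunit. The mutant rpb2-10 is of mating type a (MATa), as is its wild type WT1A, and carries an allele of RPB2, the gene for the second largest subunit. All 5 strains are W303 with RAD5 and share their marker alleles in ade2, can1, his3, leu2, trp1 and ura3, and each mutation was present in 1 strain, so a difference from wild type may include other differences of that strain. The comparisons ask how steady-state RNA of these genes differs in cells whose polymerase is altered in either of its large subunits. Both rpb1 alleles are compared with the same 3 WT1B arrays, so their differences are not independent of each other.

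Values are deposited log2 expression levels, on which a difference of 1 is a factor of 2. The alpha strains (9 arrays) had median levels of 10.04 to 10.09, and the a strains (6 arrays) 7.75 to 7.83. Levels were therefore compared only within a mating type, and never between genes. The normalization makes arrays alike in distribution, so higher and lower mean relative to the other genes of that array. All 38 members lay above the 95th percentile of the probe sets for another species on all 15 arrays. The median SD of a member over 3 replicates was 0.09 in rpb1-1, 0.10 in rpb1S751F and 0.09 in WT1B, and 0.05 in rpb2-10 and 0.06 in WT1A. The genes that mark a cells (MFA1, MFA2, STE2) and alpha cells (MF(ALPHA)1, MF(ALPHA)2, STE3) followed the labels in both wild types. STE3 and MF(ALPHA)2 were low in rpb1-1, at a median-centred −2.09 to −1.67 and −3.04 to −2.30 against 1.83 to 2.02 and 2.65 to 3.02 in WT1B, and MF(ALPHA)2 was also low in rpb1S751F, at −2.30 to −1.21. Among other shifts of these markers, MFA1 was higher in rpb1S751F (−1.27 to −0.87) than in WT1B (−3.06 to −2.48). MF(ALPHA)1 was lower in rpb1-1 (2.12 to 2.63) than in WT1B (3.53 to 3.71). STE3 was higher in rpb2-10 (−2.34 to −2.03) than in WT1A (−3.89 to −3.83). The part of these shifts in the results below was not tested.

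RPO21, whose product the rpb1 alleles alter, stood at 11.68, 11.77 and 11.63 in rpb1-1 and 11.63, 11.75 and 11.63 in rpb1S751F, against 11.40, 11.29 and 11.20 in WT1B. It was higher by 0.40 ± 0.08 in rpb1-1 and 0.37 ± 0.08 in rpb1S751F (log2 fold change ± SE, n = 3 arrays a group here and below, limma adjusted p = 0.00259 and 0.00373). RPB2, whose product rpb2-10 alters, had levels of 10.28, 10.26 and 10.42 in rpb2-10, against 10.37, 10.27 and 10.32 in WT1A. These arrays overlapped, and the difference was 0.00 ± 0.06, whereas RPB2 was higher by 0.63 ± 0.07 in rpb1-1 and 0.36 ± 0.07 in rpb1S751F. The arrays measure RNA level, and do not show the mutations themselves.

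In rpb1-1, genes of Mediator and the general factors were mostly higher than in WT1B where they differed. Of the 38 members, 19 were higher and 3 lower at an adjusted p below 0.05, among them all 4 tail subunits of Mediator and both subunits of TFIIE and of TFIIF, all on the higher side. Of all 5449 genes, 53.8% were called, 28.1% higher and 25.7% lower, so the share of members called (57.9%) was near the background, while the calls over all genes were split more evenly between the sides. The median log2 difference of the members was 0.23, against -0.01 over all genes. The median size of a difference, regardless of sign, was 0.29 for members and 0.34 for all genes, and no member reached 1, which 11.5% of all genes did. Array weights raised the members called lower to 7, and the genes called over all 5449 from 2932 to 3537.

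In rpb1S751F, 16 members were called against WT1B, and the largest difference of any member in any mutant was found here, in the TFIIA subunit TOA2. There were 12 members higher and 4 lower (42.1%), where the background was 54.6%, with 31.1% of all genes higher and 23.5% lower. The median log2 difference of the members was 0.02, against 0.04 over all genes, and the median size was 0.20 for members and 0.35 for all genes. Without WT1B replicate 2 only 10 members were called, 7 of them higher. The count was 25 with array weights, 15 higher and 10 lower, while the genes called over all 5449 rose from 2974 to 4207. Quantile normalization within the mating type left 9 higher and 6 lower.

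In rpb2-10, members were called on both sides: 12 were higher and 13 lower than in WT1A (65.8%), and Mediator accounted for 8 of the higher and 11 of the lower ones. The background was 71.2%, with 32.0% of all genes higher and 39.1% lower. Sizes were again below those of all genes, with a median of 0.21 for members and 0.30 for all genes, and the median log2 difference was -0.05 in both. The counts cannot be set against those of the alpha strains, whose arrays spread more. In 1 fit over all 15 arrays, 7 members were called higher, and without 1 array the count on that side went down to 8 at the lowest.

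**Figure D1:**
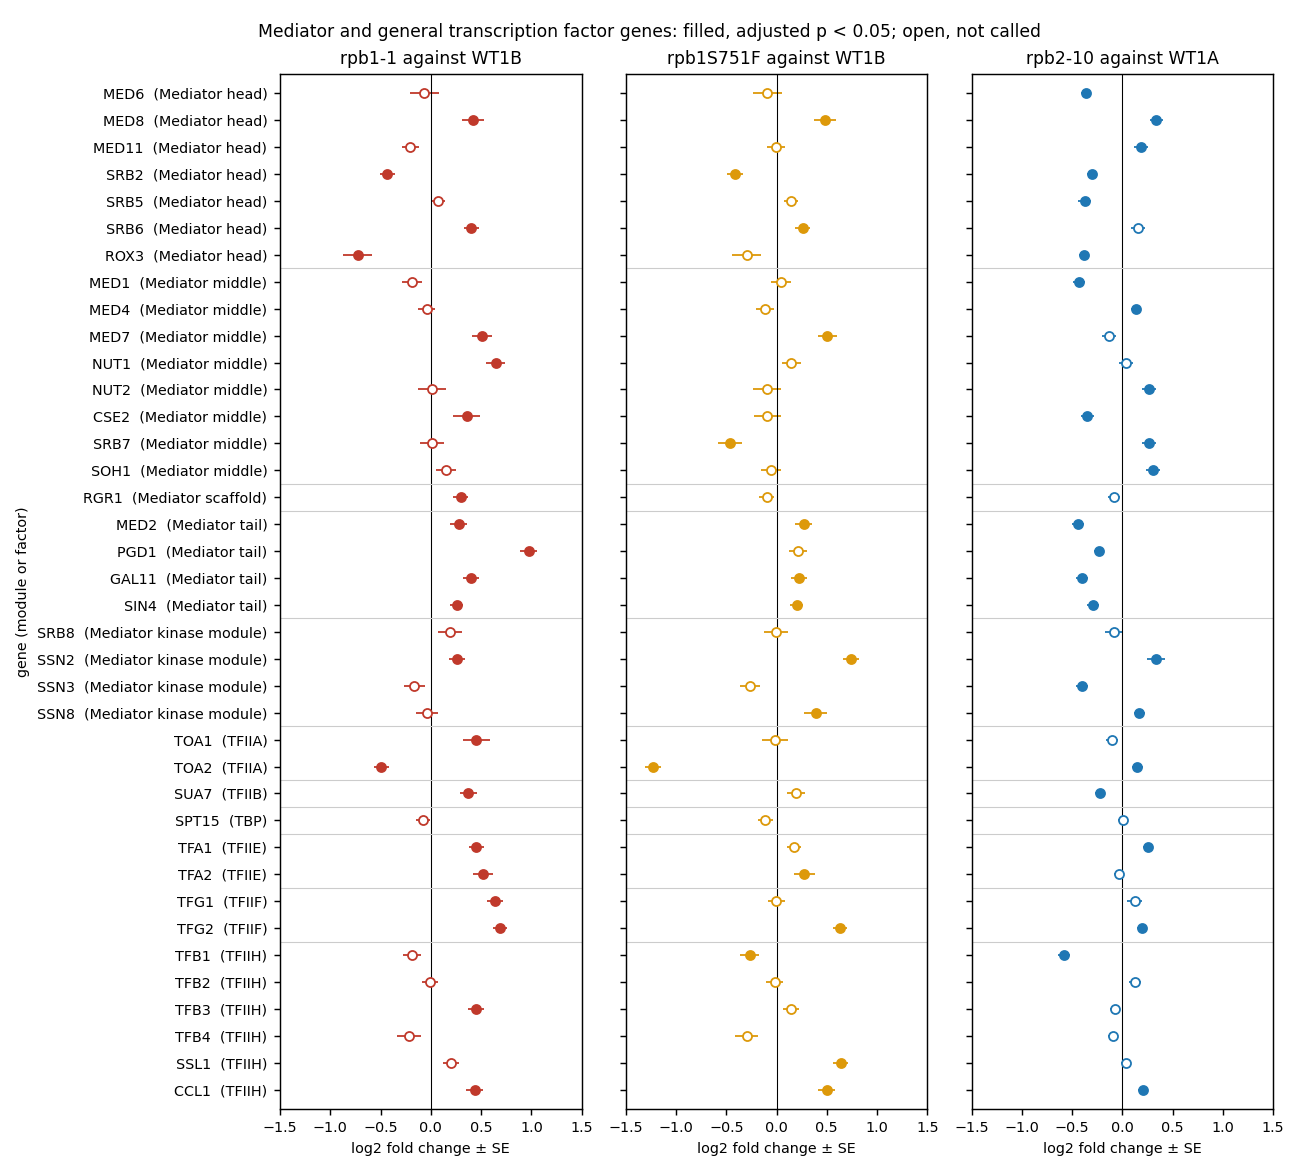
Log2 fold change ± SE of the 38 measured members (rows, by module or factor) in rpb1-1 and rpb1S751F against WT1B and in rpb2-10 against WT1A (n = 3 arrays a group); filled points have an adjusted p below 0.05. The 4 Mediator tail genes lie right of 0 in both rpb1 alleles and left of it in rpb2-10, and TOA2 in rpb1S751F is the only point beyond -1 or 1.

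The tail genes that were called had 1 direction within each mutant. MED2, PGD1, GAL11 and SIN4 encode the tail subunits, of which GAL11 is the best known target of activators such as Gcn4 and Gal4. All 4 were higher in rpb1-1, 3 of 4 were called higher in rpb1S751F, and all 4 were lower in rpb2-10. Of all genes, 28.1% were higher in rpb1-1, 31.1% higher in rpb1S751F and 39.1% lower in rpb2-10. PGD1 showed the largest rise of any member in rpb1-1, with levels of 10.05, 10.06 and 10.11 in rpb1-1 and 9.26, 9.40 and 9.27 in rpb1S751F, against 9.27, 8.97 and 9.06 in WT1B. The rpb1-1 arrays stood clear of all others of that mating type, while the rpb1S751F arrays overlapped those of WT1B. PGD1 was 1.96-fold higher in rpb1-1 (0.97 ± 0.09, adjusted p = 3.24e-05). In rpb1S751F its difference was 0.21 ± 0.09 (adjusted p = 0.0655). PGD1 was called there without WT1B replicate 1 (0.29), in 1 fit over all 15 arrays (0.21, limma adjusted p = 0.0176) and with array weights (0.25, adjusted p = 0.00189). In rpb2-10 it had levels of 6.49, 6.49 and 6.42, against 6.71, 6.71 and 6.69 in WT1A, a fall of -0.24 ± 0.05 that was not called after quantile normalization within the mating type (-0.11, adjusted p = 0.0609).

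GAL11 gave 11.20, 11.28 and 11.12 in rpb1-1 and 11.05, 11.11 and 10.91 in rpb1S751F, against 10.85, 10.85 and 10.71 in WT1B. In rpb2-10 it gave 8.71, 8.67 and 8.83, against 9.17, 9.17 and 9.08 in WT1A. No mutant array of GAL11 overlapped its wild type, and the differences were 0.40 ± 0.08 in rpb1-1, 0.22 ± 0.08 in rpb1S751F and -0.40 ± 0.06 in rpb2-10. MED2 had levels of 9.76, 9.68 and 9.62 in rpb1-1 and 9.62, 9.84 and 9.58 in rpb1S751F, against 9.40, 9.40 and 9.43 in WT1B. For MED2 in a strains, rpb2-10 had 6.37, 6.30 and 6.22, against 6.81, 6.76 and 6.65 in WT1A. Its mutant arrays also lay outside their wild types, by 0.28 ± 0.08 in rpb1-1, 0.27 ± 0.08 in rpb1S751F and -0.44 ± 0.06 in rpb2-10, the largest fall among Mediator genes in rpb2-10. SIN4 differed by 0.26 ± 0.06, 0.20 ± 0.06 and -0.29 ± 0.06 in rpb1-1, rpb1S751F and rpb2-10, again without overlap of arrays.

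The differences of effect were tested for the tail genes in 1 fit over all 15 arrays. The effect of rpb1-1 exceeded that of rpb2-10 by 1.21 ± 0.10 for PGD1, 0.80 ± 0.10 for GAL11, 0.72 ± 0.11 for MED2 and 0.54 ± 0.08 for SIN4 (adjusted p from 4.51e-07 to 0.000104). The effect of rpb1S751F exceeded it by 0.71 ± 0.11 for MED2, 0.62 ± 0.10 for GAL11, 0.49 ± 0.08 for SIN4 and 0.45 ± 0.10 for PGD1 (adjusted p from 0.000104 to 0.00193). All 4 genes were thus called in both contrasts, where the background was 56.7% of genes for rpb1-1 and 51.7% for rpb1S751F. Both contrasts use the same rpb2-10 and WT1A arrays, and the mutated subunit, the mating type and the array set cannot be told apart in them. The rises of GAL11, MED2 and SIN4 in rpb1S751F were lost without some arrays: GAL11 without any 1 of the 9 alpha arrays but rpb1-1 replicate 2 and rpb1S751F replicate 3, MED2 without rpb1S751F replicate 2, WT1B replicate 1 or WT1B replicate 2, and SIN4 without rpb1S751F replicate 2 or 3 or WT1B replicate 2 or 3. GAL11 was also not called with array weights (0.09, adjusted p = 0.111) or after quantile normalization within the mating type (0.20). Values without the arrays named lay between 0.17 and 0.24 for GAL11, 0.19 and 0.27 for MED2, and 0.17 and 0.21 for SIN4; the rise of MED2 in rpb1-1 was lost without rpb1-1 replicate 1 (0.24), WT1B replicate 1 (0.27) or WT1B replicate 2 (0.27).

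**Figure D2:**
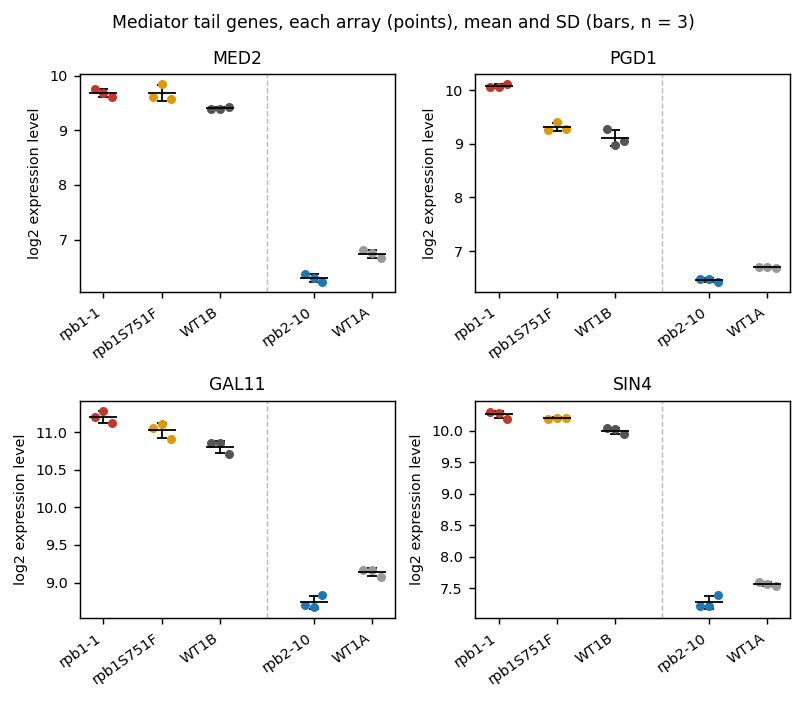
Log2 expression level of the 4 Mediator tail genes on each array (points), with the mean and SD of 3 arrays (bars); the dashed line parts the alpha strains (left) from the a strains (right), whose levels are not comparable. All rpb1-1 arrays lie above all WT1B arrays and all rpb2-10 arrays below all WT1A arrays in each panel.

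Head genes moved both ways. Of 7 measured, 2 were higher and 2 lower in rpb1-1, 2 higher and 1 lower in rpb1S751F, and 2 higher and 4 lower in rpb2-10. The shares called, 57.1%, 42.9% and 85.7%, stood beside 53.8%, 54.6% and 71.2% of all genes, and with 7 genes nothing is read from the difference. MED8, a head subunit that binds TBP in vitro, was higher in all 3 mutants. Its levels were 9.65, 9.76 and 9.88 in rpb1-1 and 9.73, 9.98 and 9.76 in rpb1S751F, against 9.50, 9.20 and 9.32 in WT1B. In rpb2-10 they were 6.92, 6.79 and 6.71, against 6.42, 6.46 and 6.54 in WT1A. All mutant arrays lay above their wild types, by 0.42 ± 0.11, 0.48 ± 0.11 and 0.34 ± 0.06 in rpb1-1, rpb1S751F and rpb2-10 (adjusted p = 0.00908, 0.00469 and 0.00144). SRB2, found through mutations that suppress truncation of the polymerase tail domain, was the only member lower in all 3. It had 10.81, 10.82 and 10.59 in rpb1-1 and 10.75, 10.78 and 10.75 in rpb1S751F, against 11.18, 11.20 and 11.13 in WT1B. The a strains showed 8.07, 7.99 and 8.01 in rpb2-10, against 8.31, 8.34 and 8.33 in WT1A. The arrays did not overlap in any of these comparisons, and SRB2 fell by 0.43 ± 0.08, 0.41 ± 0.08 and 0.31 ± 0.05 in rpb1-1, rpb1S751F and rpb2-10.

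ROX3, the subunit also named MED19, showed the largest fall of any member in rpb1-1. Its levels there were 10.30, 10.08 and 10.45 and those in rpb1S751F 10.81, 10.70 and 10.61, against 11.19, 11.14 and 10.69 in WT1B. The rpb1-1 arrays lay below all WT1B arrays, of which replicate 3 was low, and the rpb1S751F arrays overlapped them. ROX3 was 1.66-fold lower in rpb1-1 (-0.73 ± 0.15, adjusted p = 0.00279), whereas in rpb1S751F the difference was -0.30 ± 0.15 (adjusted p = 0.111). ROX3 was called lower there without WT1B replicate 3 (-0.45), in 1 fit over all 15 arrays (-0.30, limma adjusted p = 0.0408) and with array weights (-0.48, adjusted p = 0.00028). In rpb2-10 it had 8.09, 8.14 and 8.08, against 8.48, 8.50 and 8.49 in WT1A, and fell by 0.39 ± 0.05. SRB6 was higher by 0.40 ± 0.07 in rpb1-1 and by 0.26 ± 0.07 in rpb1S751F, the second of which was lost without WT1B replicate 2 (0.24). MED6 and SRB5 were lower in rpb2-10, by -0.36 ± 0.05 and -0.37 ± 0.06, and were not called in either rpb1 allele. With array weights, however, MED6 was called lower (-0.29, limma adjusted p = 0.00719) and SRB5 higher (0.16, adjusted p = 0.00645) in rpb1S751F. MED11 was higher in rpb2-10 by 0.18 ± 0.07, the only call of a member whose arrays overlapped. This call was lost without rpb2-10 replicate 1 (0.17) or 2 (0.15) or WT1A replicate 1 (0.12) or 3 (0.19). It was also lost in 1 fit over all arrays (0.18, limma adjusted p = 0.0739).

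In the middle module, 3 of 8 genes were higher and none lower in rpb1-1. None of the 8 was lower there at an unadjusted p of 0.05 in limma, although MED1 was called lower with array weights (-0.25, adjusted p = 0.0185). In rpb1S751F, 1 was higher and 1 lower, and in rpb2-10, 4 were higher and 2 lower. The shares called in rpb1-1, rpb1S751F and rpb2-10 were 37.5%, 25% and 75%, against 53.8%, 54.6% and 71.2% of all genes. MED7, a core subunit that pairs with SRB7, was higher in both rpb1 alleles. Its levels were 9.47, 9.38 and 9.64 in rpb1-1 and 9.64, 9.45 and 9.37 in rpb1S751F, against 9.08, 8.95 and 8.93 in WT1B. The arrays of the alleles lay together, 0.51 ± 0.10 above WT1B in each, and the difference between the alleles was 0.00 ± 0.10, with a 95% interval of -0.22 to 0.23. In rpb2-10, MED7 had a difference of -0.13 ± 0.07, called only without rpb2-10 replicate 1 (-0.20). SRB7 itself, also named MED21, had a difference of 0.01 ± 0.12 in rpb1-1, fell by 0.46 ± 0.12 in rpb1S751F and was higher by 0.26 ± 0.07 in rpb2-10. NUT1, also named MED5, was higher in rpb1-1, with 10.54, 10.54 and 10.24 there and 9.88, 9.97 and 9.97 in rpb1S751F, against 9.83, 9.72 and 9.83 in WT1B. It rose by 0.65 ± 0.09 in rpb1-1 (adjusted p = 0.00046), and its difference was 0.15 ± 0.09 in rpb1S751F and 0.04 ± 0.07 in rpb2-10.

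MED1, the middle subunit with the largest fall in rpb2-10, had 6.82, 6.81 and 6.76 in rpb2-10, against 7.34, 7.19 and 7.14 in WT1A. All mutant arrays were below all wild-type arrays, by -0.43 ± 0.06 (adjusted p = 0.000222), and MED1 was not called in the rpb1 alleles. CSE2 (MED9) was also lower in rpb2-10, by -0.35 ± 0.07. Its rise of 0.36 ± 0.13 in rpb1-1 (adjusted p = 0.048) was lost without any 1 array of rpb1-1 but replicate 2, without rpb1S751F replicate 3 and without any 1 of WT1B, at values from 0.29 to 0.40, after median centring (0.32, adjusted p = 0.0838) and after quantile normalization within the mating type (0.31, adjusted p = 0.108). SOH1 (MED31), NUT2 (MED10) and MED4 were higher in rpb2-10, by 0.30 ± 0.07, 0.26 ± 0.07 and 0.13 ± 0.05, and were not called in the rpb1 alleles. The call of MED4 was lost without rpb2-10 replicate 1 or 2 or WT1A replicate 1 or 2, at 0.12 to 0.14, with the replicate block (adjusted p = 0.0745) and in 1 fit over all arrays (adjusted p = 0.122). RGR1, the scaffold, was higher in rpb1-1 by 0.30 ± 0.07, and had differences of -0.10 ± 0.07 in rpb1S751F and -0.09 ± 0.06 in rpb2-10.

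The kinase module holds the kinase SSN3 (CDK8), its cyclin SSN8, and SRB8 and SSN2 (MED12 and MED13), of which SSN2 links the module to the rest of Mediator. SSN2 was higher in all 3 mutants, most in rpb1S751F. It had 8.11, 8.12 and 8.12 in rpb1-1 and 8.46, 8.72 and 8.59 in rpb1S751F, against 7.76, 7.90 and 7.90 in WT1B. In rpb2-10 it had 6.45, 6.31 and 6.56, against 6.23, 6.13 and 5.95 in WT1A. The 3 alpha groups did not overlap each other, with rpb1-1 between rpb1S751F and WT1B. SSN2 was 1.67-fold higher in rpb1S751F (0.74 ± 0.08, adjusted p = 0.000123), 0.26 ± 0.08 higher in rpb1-1 and 0.34 ± 0.09 higher in rpb2-10. Its call in rpb1-1 was lost without any 1 rpb1-1 array or WT1B replicate 1, at values of 0.22 to 0.27.

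SSN3 was lower in rpb2-10, with 6.92, 6.91 and 6.84 there, against 7.40, 7.22 and 7.27 in WT1A. It fell by 0.40 ± 0.06 without overlap (adjusted p = 0.000271). In the rpb1 alleles SSN3 had differences of -0.16 ± 0.10 in rpb1-1 and -0.27 ± 0.10 in rpb1S751F, the second at an adjusted p of 0.0527 and called in 7 of 17 alternatives, among them those without rpb1-1 replicate 2, rpb1S751F replicate 2 or WT1B replicate 3 (-0.27, -0.32 and -0.32). SSN8 was higher by 0.39 ± 0.11 in rpb1S751F and 0.17 ± 0.06 in rpb2-10, and had -0.04 ± 0.11 in rpb1-1. The first rise was lost after quantile normalization within the mating type (0.17, adjusted p = 0.211) and without WT1B replicate 1 (0.32). The second was lost without rpb2-10 replicate 1 or 2 or WT1A replicate 1 or 3, at 0.13 to 0.16. It was also lost in 1 fit over all arrays (0.17, limma adjusted p = 0.142). SRB8 was called in none of the 3.

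Among the general factors, 8 of 14 genes were higher and 1 lower in rpb1-1. In rpb1S751F and in rpb2-10 alike, 4 were higher and 2 lower. The shares called in rpb1-1, rpb1S751F and rpb2-10 were 64.3%, 42.9% and 42.9%, against 53.8%, 54.6% and 71.2% of all genes. TFIIA, which steadies TBP on DNA, is a dimer of the products of TOA1 and TOA2, and these genes parted in the rpb1 alleles. TOA2 had 10.95, 10.87 and 10.80 in rpb1-1 and 10.07, 10.10 and 10.23 in rpb1S751F, against 11.29, 11.35 and 11.45 in WT1B. The 3 groups did not overlap, with rpb1S751F lowest. TOA2 was 2.34-fold lower in rpb1S751F (-1.23 ± 0.08, adjusted p = 7.93e-06) and 1.41-fold lower in rpb1-1 (-0.49 ± 0.08, adjusted p = 0.000779). TOA1 had 11.60, 11.52 and 11.72 in rpb1-1 and 11.28, 10.85 and 11.29 in rpb1S751F, against 11.32, 11.05 and 11.10 in WT1B. TOA1 was higher in rpb1-1, by 0.45 ± 0.13, a call lost without rpb1-1 replicate 3 (0.40), WT1B replicate 2 (0.40) or WT1B replicate 3 (0.43), and it had -0.02 ± 0.13 in rpb1S751F. In rpb2-10, TOA1 had -0.10 ± 0.06, called only without WT1A replicate 2 (-0.15). TOA2 was higher there by 0.15 ± 0.05, a call lost without rpb2-10 replicate 2 (0.11), WT1A replicate 1 (0.15) or WT1A replicate 3 (0.13). The call was also lost with the replicate block (limma adjusted p = 0.053), with array weights (adjusted p = 0.0546) and in 1 fit over all arrays (adjusted p = 0.0726).

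SPT15, which encodes TBP, was among the members that moved least. It had 12.32, 12.26 and 12.38 in rpb1-1 and 12.35, 12.26 and 12.25 in rpb1S751F, against 12.49, 12.36 and 12.34 in WT1B. In rpb2-10 it had 10.24, 10.31 and 10.21, against 10.26, 10.28 and 10.22 in WT1A. Arrays overlapped in all 3 comparisons, and the 95% intervals of the log2 difference were -0.24 to 0.08, -0.27 to 0.05 and -0.11 to 0.11 in rpb1-1, rpb1S751F and rpb2-10. With array weights SPT15 was called lower in rpb1S751F (-0.13, limma adjusted p = 0.016). SUA7, which encodes TFIIB, was higher by 0.37 ± 0.09 in rpb1-1 and fell by 0.23 ± 0.05 in rpb2-10, and had 0.19 ± 0.09 in rpb1S751F. The effects of rpb1-1 and rpb2-10 on SUA7 differed by 0.60 ± 0.10 (adjusted p = 0.000216).

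TFIIF, which travels with the polymerase to the promoter, has TFG1 and TFG2 as its large subunits. TFG2 was higher in all 3 mutants, with 11.59, 11.66 and 11.73 in rpb1-1 and 11.57, 11.65 and 11.60 in rpb1S751F, against 11.06, 10.92 and 10.94 in WT1B. In rpb2-10 it had 8.68, 8.63 and 8.64, against 8.47, 8.40 and 8.48 in WT1A. No mutant array overlapped its wild type, and the rises were 0.69 ± 0.07, 0.64 ± 0.07 and 0.20 ± 0.05 in rpb1-1, rpb1S751F and rpb2-10. TFG1 had 11.43, 11.43 and 11.29 in rpb1-1 and 10.73, 10.67 and 10.83 in rpb1S751F, against 10.85, 10.77 and 10.62 in WT1B. TFG1 thus rose with TFG2 in rpb1-1, by 0.64 ± 0.08 (adjusted p = 0.00027), and overlapped WT1B in rpb1S751F, where its difference was -0.00 ± 0.08. In rpb2-10 the difference of TFG1 was 0.12 ± 0.07 and the arrays overlapped.

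TFIIE recruits TFIIH and is encoded by TFA1 and TFA2. TFA2 had 10.37, 10.21 and 10.63 in rpb1-1 and 10.16, 10.16 and 10.16 in rpb1S751F, against 9.94, 9.86 and 9.84 in WT1B. Both alleles lay above WT1B without overlap, by 0.52 ± 0.10 in rpb1-1 and 0.28 ± 0.10 in rpb1S751F (adjusted p = 0.00265 and 0.0472). The call in rpb1S751F was lost without rpb1-1 replicate 1, any 1 rpb1S751F array or any 1 WT1B array, at 0.26 to 0.31. It was also lost after median centring of the arrays (limma adjusted p = 0.056), after quantile normalization within the mating type (adjusted p = 0.0516) and with the replicate block (adjusted p = 0.0547). TFA1 was higher by 0.45 ± 0.07 in rpb1-1 and 0.25 ± 0.04 in rpb2-10, and had 0.17 ± 0.07 in rpb1S751F. The last was called without WT1B replicate 1 (0.23), in 1 fit over all arrays (0.17, limma adjusted p = 0.0177) and with array weights (0.23, adjusted p = 0.000721).

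**Figure D3:**
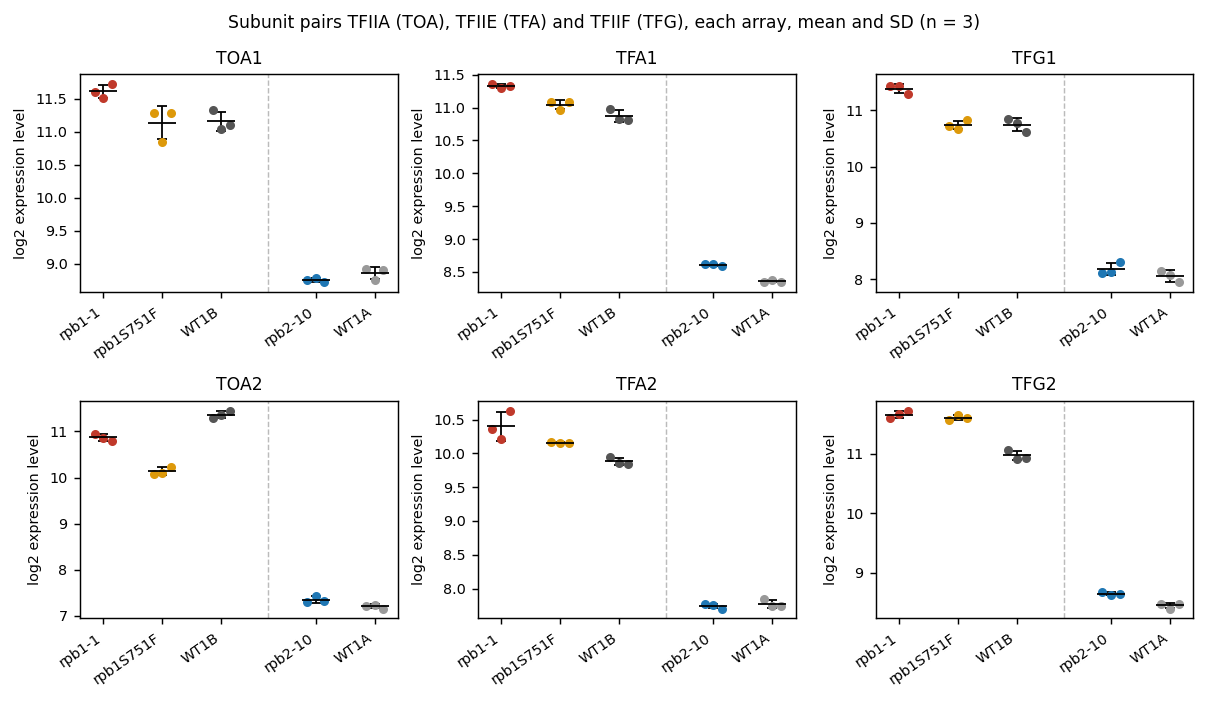
Log2 expression level on each array (points), with the mean and SD of 3 arrays (bars), of the genes for the subunit pairs of TFIIA (TOA1, TOA2), TFIIE (TFA1, TFA2) and TFIIF (TFG1, TFG2); the dashed line parts alpha strains (left) from a strains (right), whose levels are not comparable. TOA2 lies below WT1B in both rpb1 alleles, lowest in rpb1S751F, while TFG1 lies above WT1B in rpb1-1 and among the WT1B arrays in rpb1S751F.

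TFIIH has a core that opens DNA and a kinase part that phosphorylates the tail domain of the polymerase. Of its 6 member genes, 2 were higher in rpb1-1 (CCL1 and TFB3). In rpb1S751F, 2 were higher (CCL1 and SSL1) and 1 lower (TFB1), and in rpb2-10, 1 was higher (CCL1) and 1 lower (TFB1). The shares called in rpb1-1, rpb1S751F and rpb2-10 were 33.3%, 50% and 33.3%, against 53.8%, 54.6% and 71.2% of all genes. CCL1, the cyclin of the TFIIH kinase, was higher in all 3 mutants, with 9.61, 9.72 and 9.78 in rpb1-1 and 9.83, 9.73 and 9.75 in rpb1S751F, against 9.41, 9.15 and 9.25 in WT1B. Its levels in a strains were 6.86, 6.84 and 6.81 in rpb2-10, against 6.66, 6.66 and 6.59 in WT1A. The arrays did not overlap, and the rises were 0.44 ± 0.08, 0.50 ± 0.08 and 0.20 ± 0.05 in rpb1-1, rpb1S751F and rpb2-10. TFB3, which tethers the kinase to the core, was higher by 0.45 ± 0.08 in rpb1-1.

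TFB1, a core subunit, showed the largest difference of any member in rpb2-10, with 7.54, 7.60 and 7.60 there, against 8.25, 8.15 and 8.09 in WT1A. All 3 mutant arrays were below the wild type, and the log2 difference was -0.58 ± 0.06 (adjusted p = 2.15e-05). It had -0.27 ± 0.09 in rpb1S751F (adjusted p = 0.0328), lost without rpb1S751F replicate 2 or 3 or any 1 WT1B array at values from -0.21 to -0.29, and -0.19 ± 0.09 in rpb1-1. SSL1, a core subunit with a ring domain, had 10.30, 10.40 and 10.48 in rpb1-1 and 10.79, 10.93 and 10.77 in rpb1S751F, against 10.15, 10.26 and 10.16 in WT1B. Only rpb1S751F was called, at 1.56-fold higher (0.64 ± 0.08, adjusted p = 0.000208). In rpb1-1 the arrays also lay above WT1B, by 0.20 ± 0.08 (adjusted p = 0.0527). This difference was called without rpb1-1 replicate 1 (0.25) or rpb1S751F replicate 2 (0.20), and in 1 fit over all arrays (0.20, limma adjusted p = 0.0144). TFB2 and TFB4 were called in none of the 3 mutants in the reported fits. However, TFB4 was called in rpb1-1 without rpb1-1 replicate 3 (-0.33), and in rpb1S751F without rpb1-1 replicate 3 (-0.30) or WT1B replicate 3 (-0.37). In rpb1S751F it was also called in 1 fit over all arrays (-0.30), after quantile normalization within the mating type (-0.31) and with array weights (-0.30). TFB2 was called in rpb2-10 without WT1A replicate 2 (0.18), after median centring (0.19) and after quantile normalization within the mating type (0.19).

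The rpb1 alleles were also compared directly. Of the 38 members, 10 were higher and 4 lower in rpb1-1 than in rpb1S751F. Of all genes, 48.0% were called, 22.8% higher and 25.3% lower. Array weights raised the members higher to 16, and the genes called over all 5449 from 2616 to 3576. The largest differences were in genes whose per-array levels stand above: PGD1 by 0.76 ± 0.09, TOA2 by 0.74 ± 0.08, TFG1 by 0.64 ± 0.08 and NUT1 by 0.50 ± 0.09 (adjusted p = 0.000149, 9.81e-05, 0.0003 and 0.0021), all without overlap of arrays. SRB7, TOA1, CSE2, RGR1, TFB3 and TFA1 were the others on the higher side, from 0.48 down to 0.28. SSN2, SSL1, ROX3 and SSN8 were lower in rpb1-1, by -0.47 ± 0.08, -0.44 ± 0.08, -0.43 ± 0.15 and -0.42 ± 0.11. The difference in ROX3 was lost without any 1 of rpb1-1 replicate 1 or 2 and the rpb1S751F arrays (-0.33 to -0.48), that in CSE2 without rpb1-1 replicate 1 or 3 (0.45 and 0.38), that in TOA1 without rpb1-1 replicate 3 (0.42), and that in TFB3 without rpb1-1 replicate 3 or rpb1S751F replicate 3 (0.25 and 0.27). After quantile normalization within the mating type SSN8 was no longer called (-0.09, adjusted p = 0.548) and SRB8 was (0.66, adjusted p = 0.00475).

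Across mutants, 4 members were called higher in all 3 (MED8, SSN2, TFG2 and CCL1), where 8.63% of all genes were, and SRB2 alone was called lower in all 3, where 6.18% were. The 4 called in none were SRB8, SPT15, TFB2 and TFB4, where the background was 9.58%. Both rpb1 alleles shared 10 higher members and 2 lower ones, SRB2 and TOA2, against 17.9% and 12.4% of all genes, and no member was called in opposite directions in the alleles, as 5.41% of all genes were. These counts rest on the WT1B arrays that both alleles share. Mutant and wild-type arrays did not overlap for 26, 21 and 26 of the 38 members in rpb1-1, rpb1S751F and rpb2-10 (68.4%, 55.3% and 68.4%), where the background was 63.2%, 62.5% and 76.1%. In the differences of effect, 19 members were called between rpb1-1 and rpb2-10, 17 of them with the higher effect in rpb1-1 (31.1% of all genes), and 17 between rpb1S751F and rpb2-10, 14 of them with the higher effect in rpb1S751F (30.7% of all genes).

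Members required for viability were also counted apart from the others, all of which are Mediator genes. Of the 24 essential genes measured, 9 were higher and 4 lower in rpb2-10, with a median of 0.08. Of the 14 others, 3 were higher and 9 lower, with a median of -0.30, where 32.0% of all genes were higher and 39.1% lower. The 4 tail genes described above were among these 9. In 1 fit over all arrays the essential genes MED11, MED4, NUT2 and TOA2 were no longer called higher, and without rpb2-10 replicate 2 MED11, MED4 and TOA2 were not. In rpb1-1 the essential genes counted 12 higher and 2 lower and the others 7 higher and 1 lower, with medians of 0.25 and 0.22. In rpb1S751F the counts were 7 higher and 3 lower among essential genes, and 5 higher and 1 lower among the others. The shares called in rpb1-1 were 58.3% of essential genes and 57.1% of the others, against 53.8% of all genes. Those in rpb1S751F were 41.7% and 42.9%, against 54.6% of all genes. The split follows standard gene knowledge, and the difference between these counts was not tested.

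The genes that work beside the members were taken from a list of 35, comprising the TAF subunits of TFIID, the coactivator SAGA, the other TFIIH subunits and regulators of TBP. In rpb1-1, 14 were higher and 9 lower. The 14 TAF genes counted 9 higher and none lower (none was lower at an unadjusted p of 0.05 in limma either, and the lowest value was 0.01, in TAF10), while the 14 SAGA genes counted 3 higher and 6 lower. Both lists had 64.3% of their genes called, and all genes 53.8%, of which 28.1% were higher and 25.7% lower. NCB2, a subunit of the TBP inhibitor NC2, had the largest change, with 10.64, 10.57 and 10.78 in rpb1-1 and 11.82, 11.66 and 11.71 in rpb1S751F, against 12.04, 12.01 and 11.89 in WT1B. The rpb1-1 arrays lay far below the others, and NCB2 was 2.49-fold lower in rpb1-1 (-1.31 ± 0.08). NCB2 was also called lower in rpb1S751F (-0.25, limma adjusted p = 0.0314) and in rpb2-10 (-0.28, adjusted p = 0.00128). The call in rpb1S751F was lost in 4 of 17 alternatives. HFI1, which holds SAGA together, had 8.34, 7.96 and 8.57 in rpb1-1, against 9.59, 9.62 and 9.34 in WT1B. SUS1, of the deubiquitinase part of SAGA, had 9.34, 9.43 and 9.44 in rpb1-1 and 9.44, 8.83 and 9.20 in rpb1S751F, against 10.66, 10.37 and 10.78 in WT1B. Neither gene overlapped WT1B, and the differences in rpb1-1 were -1.23 ± 0.15 for HFI1 and -1.20 ± 0.16 for SUS1.

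In rpb1S751F, 10 genes of the list were higher and 8 lower, with 5 TAF genes higher and 1 lower and 3 SAGA genes higher and 4 lower, where 54.6% of all genes were called. TFB5, the smallest subunit of the TFIIH core, had 11.55, 11.63 and 11.51 in rpb1-1 and 10.60, 10.26 and 10.54 in rpb1S751F, against 12.07, 12.06 and 12.15 in WT1B. In rpb2-10 it had 8.21, 8.53 and 8.05, against 7.62, 7.51 and 7.48 in WT1A. TFB5 was thus below WT1B in both rpb1 alleles and above WT1A in rpb2-10, and fell by 1.63 ± 0.09 in rpb1S751F and by 0.53 ± 0.09 in rpb1-1 and rose by 0.73 ± 0.11 in rpb2-10 (adjusted p = 5.32e-06, 0.0015 and 0.000363). SUS1 was lower in rpb1S751F by -1.45 ± 0.16, and TAF11 was higher by 0.62 ± 0.08, with 10.84, 10.72 and 10.68 in rpb1S751F, against 10.23, 10.11 and 10.02 in WT1B. TAF11 was also higher in rpb1-1, by 0.61 (limma adjusted p = 0.000249), with 10.72, 10.70 and 10.78 there.

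In rpb2-10, 7 genes of the list were higher and 11 lower, with 3 TAF genes higher and 4 lower and 2 SAGA genes higher and 4 lower, where 71.2% of all genes were called. SSL2, the TFIIH helicase that opens promoter DNA, had 7.39, 7.35 and 7.52 in rpb2-10, against 8.04, 8.00 and 7.90 in WT1A. In the alpha strains it had 10.53, 10.71 and 10.78 in rpb1-1 and 10.08, 10.09 and 10.01 in rpb1S751F, against 9.62, 9.72 and 9.35 in WT1B. SSL2 therefore fell by 0.56 ± 0.06 in rpb2-10, and was higher by 1.11 ± 0.11 in rpb1-1 and 0.50 ± 0.11 in rpb1S751F, with no overlap in any of these comparisons. UBP8, the SAGA deubiquitinase, had 7.10, 7.00 and 7.18 in rpb2-10, against 7.68, 7.66 and 7.48 in WT1A, and was lower by -0.51 ± 0.07 without overlap. UBP8 was also lower in rpb1-1, by -0.49 (limma adjusted p = 0.0167), a call lost in 3 of 17 alternatives. The 3 regulators of TBP (BUR6, MOT1 and NCB2) counted 2 lower in rpb1-1, 1 higher and 2 lower in rpb1S751F, and 2 lower in rpb2-10. The 4 other TFIIH subunits counted 2 higher and 1 lower in rpb1-1, 1 higher and 1 lower in rpb1S751F, and 2 higher and 1 lower in rpb2-10. Of all genes, 53.8%, 54.6% and 71.2% were called in rpb1-1, rpb1S751F and rpb2-10.

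**Figure D4:**
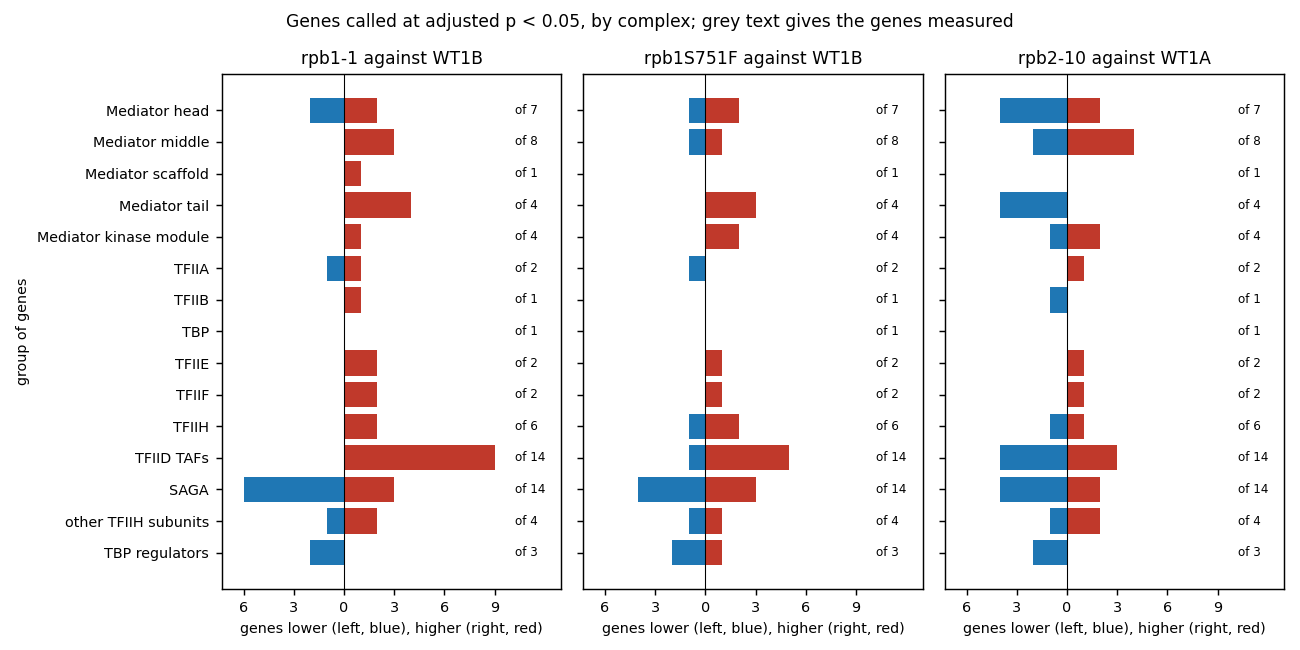
Number of genes called at an adjusted p below 0.05 in each group (rows), lower to the left in blue and higher to the right in red, in rpb1-1 and rpb1S751F against WT1B and in rpb2-10 against WT1A; the text at the right gives the genes measured. The bars of the 4 Mediator tail genes point right in rpb1-1 (4) and rpb1S751F (3) and left in rpb2-10 (4), and 9 of the 14 TFIID TAFs point right in rpb1-1. Of all genes, 28.1% were higher in rpb1-1, 31.1% higher in rpb1S751F and 39.1% lower in rpb2-10.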

How the data were processed

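RNA of 5 strains, with 3 biological replicates each, was measured on Affymetrix Yeast Genome 2.0 arrays after one-cycle labelling of 1 µg total RNA, per the labels. The deposited values are log2 expression levels made with RMA (background correction, quantile normalization and probe summary), per the submitters' processing notes, which also name limma and give no versions. The alpha and a strains appear to have been normalized apart, since their array medians differ, so arrays were compared only within a mating type. Quantile normalization removes changes common to most genes.

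Of 10928 probe sets, 5498 carried 1 yeast gene symbol in the platform annotation, 1 several, 1746 were for another species and 3683 were unnamed. 12 symbols were updated through RefSeq R64 names. The brightest probe set stood for each of 47 genes with several, which left 5449 genes. The package limma 3.58.1 (lmFit, then eBayes, under R 4.3.3) tested the differences, in separate fits for alpha (9 arrays, 6 residual degrees of freedom) and a strains (6 arrays, 4), with Benjamini-Hochberg adjustment over all genes. Genes were called at an adjusted p below 0.05. Differences between the effects of 2 mutants came from 1 fit over 15 arrays. Errors are SE of the log2 difference unless named SD. The fit was tested on simulated data.

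The members and gene lists were chosen with earlier results of these data known. Per-array values are given for the 6 called members with the largest differences in each mutant, the 4 with the largest between the rpb1 alleles, those called the same way in all 3 mutants, the mutated genes, and 3 genes of the wider list per mutant; those of TOA1 and SPT15 were added with their values in view. Alternatives were 1 fit over all arrays, a replicate block, median centring, quantile normalization within the mating type, the mean of a gene's probe sets, removal of dim genes, array weights and leaving out each array. Estimation of the array weights gave convergence warnings, and the weights rest on few arrays. The number of arrays limits the precision, and no sequence is printed.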

Additional observations from a re-analysis of the deposited data

Results flagged for a closer look

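Effects that differed between mutants in limma's test of the difference itself are given here as the log2 effect of the rpb1 allele minus the log2 effect of rpb2-10. All rest on the same rpb2-10 and WT1A arrays, and subunit, mating type and array set cannot be told apart.

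Between rpb1-1 and rpb2-10, the tail genes differed by 1.21 (PGD1), 0.80 (GAL11), 0.72 (MED2) and 0.54 (SIN4). The other Mediator genes with a higher effect in rpb1-1 were CSE2 (0.71), MED7 (0.64), NUT1 (0.61), SRB5 (0.45) and RGR1 (0.38), and MED11 had a lower one (-0.39). Among the general factors the difference was 0.60 in SUA7, 0.56 in TOA1, 0.55 in TFA2, 0.52 in TFB3, 0.51 in TFG1, 0.49 in TFG2, 0.40 in TFB1 and 0.20 in TFA1, and TOA2 had -0.64. The difference in TFA1 had an adjusted p of 0.0462 and was lost in 13 of 22 alternatives. Outside the members, SSL2 had 1.67, RPB2 0.62 and TAF11 0.58, while SUS1 had -1.30, TFB5 -1.26, HFI1 -1.04 and NCB2 -1.03.

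Between rpb1S751F and rpb2-10, the tail genes differed by 0.71 (MED2), 0.62 (GAL11), 0.49 (SIN4) and 0.45 (PGD1). MED7 (0.64), SRB5 (0.52), MED1 (0.47) and SSN2 (0.40) also had a higher effect in rpb1S751F, and SRB7 (-0.73) and SOH1 (-0.36) a lower one. For the general factors the values were 0.60 in SSL1, 0.44 in TFG2, 0.42 in SUA7, 0.31 in TFB1, 0.31 in TFA2, 0.30 in CCL1 and -1.38 in TOA2. The call of TFA2 was lost in 15 of 22 alternatives, among them the replicate block (adjusted p = 0.0521), that of TFB1 in 8 and that of CCL1 in 3, and all of these after median centring (0.24, 0.24 and 0.23) and quantile normalization within the mating type (0.23, 0.24 and 0.18). That of SSN2 was lost after quantile normalization within the mating type (0.18), and that of SOH1 without any 1 of 7 arrays (-0.30 to -0.37). Outside the members, TFB5 had -2.36, SUS1 -1.55, SSL2 1.06, TAF11 0.59 and RPB2 0.36.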

How the results depend on the processing

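No direction of a called result reversed under any alternative. The members called kept within 1.5 times of the reported count except in rpb1S751F, where the 16 became 25 with array weights and 10 without WT1B replicate 2. All genes called there went from 2974 to 4207 with array weights and to 2495 without WT1B replicate 2. Without 1 array, members called ranged from 19 to 24 in rpb1-1, 10 to 17 in rpb1S751F, 21 to 27 in rpb2-10 and 11 to 14 between the alleles, and from 18 to 21 and 14 to 18 in the differences of effect of rpb1-1 and rpb1S751F from rpb2-10. Calls that held in every alternative were 18 of 22 in rpb1-1, 9 of 16 in rpb1S751F, 19 of 25 in rpb2-10 and 9 of 14 between the alleles. Members called lower were 7 in rpb1-1 with array weights (3 reported), and 7 in 1 fit over all arrays and 10 with array weights in rpb1S751F (4 reported); members higher were 7 in rpb2-10 in 1 fit (12 reported) and 16 between the alleles with array weights (10 reported).

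The groups share replicate numbers 1 to 3. Deviations of same-numbered arrays correlated at 0.32, -0.28 and -0.31 for rpb1-1 and WT1B, 0.48, -0.02 and 0.38 for rpb1S751F and WT1B, -0.12, -0.02 and -0.24 for rpb2-10 and WT1A, and 0.37, 0.50 and -0.29 for rpb1-1 and rpb1S751F, so the numbers were not taken to pair the arrays. With the replicate block, members called were 22 in rpb1-1, 15 in rpb1S751F, 23 in rpb2-10 and 14 between the alleles, and 20 and 16 in the differences of effect. None of the members was removed as dim. The lowest member on each array was SRB8 or SSN8, whose calls between the alleles turned after quantile normalization within the mating type. The 3 arrays a group limit what could be called.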
